A study of Mus musculus with 3 samples.

Results

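The mRNAs of the TGF-beta pathway described here are those of 3 ligands (Tgfb1, Tgfb2, Tgfb3), 3 receptors (Tgfbr1, Tgfbr2, Tgfbr3) and 4 Smads (Smad2, Smad3, Smad4, Smad7). They were chosen by gene symbol. All 10 were in the authors' table of 15403 named genes, and all 10 passed the filter on low values described below. The RNA came from C2C12 cells, a mouse myoblast line that fuses into multinucleated muscle cells when serum is lowered. Cells were differentiated to day 2 in 2% horse serum, and 500 µg of their extract was incubated with beads that carried an antibody against HuR, an antibody against YB-1, or control IgG. RNA recovered on the beads was sequenced (RIP-seq). HuR (encoded by Elavl1) and YB-1 (encoded by Ybx1) are RNA-binding proteins, and the study asked which mRNAs each of them carries in muscle cells. The cells carried no transgene or edited allele that the labels name. The library columns of the deposited table end in a tag, siCtl, that the labels do not explain. There was 1 library per antibody, so no difference has a replicate check and none was tested. Intervals are exact 95% intervals that cover counting error only.

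TGF-beta ligands are secreted as dimers held in a latent complex. Once released, a ligand binds the type II receptor (Tgfbr2), which activates the type I receptor kinase (Tgfbr1), and the co-receptor betaglycan (Tgfbr3) helps to present it, TGF-beta2 above all. The type I receptor phosphorylates Smad2 and Smad3, which enter the nucleus with Smad4 and control transcription, while Smad7 is an inhibitory Smad that acts on the receptor. In myoblasts, TGF-beta acting through Smad3 is known to hold back differentiation. HuR binds AU-rich and U-rich stretches, many of them in 3' UTRs, and YB-1 binds single-stranded RNA through its cold-shock domain.

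The 3' UTRs of the ligands differ widely. Their ATTTA motifs (the core of an AU-rich element, written as DNA) are shown because the ligands lay on both sides of 1 in the ratio of HuR over YB-1 on the authors' scaling. Sites are given for Tgfb1 and Tgfb2, and for Smad3, whose levels in the HuR and YB-1 libraries were nearly equal on that scaling. Each line gives the GENCODE M21 transcript sequence 5′ to 3′, with ATTTA in capitals and 10 bases on either side, on GRCm38. Tgfb1 is on the plus strand, Tgfb2 and Smad3 on the minus strand.
Tgfb1 (chr7:25705005-25705029): ccggggctgtATTTAaggacacctg
Tgfb2 (chr1:186624934-186624958): acagtgggttATTTAttgtgtgtta
Tgfb2 (chr1:186624323-186624347): aatggttatgATTTAgattgaactt
Tgfb2 (chr1:186624152-186624176): tgtattgtccATTTAatgacatgag
Tgfb2 (chr1:186623868-186623892): taactcctatATTTAtggactctct
Smad3 (chr9:63650087-63650111): ccagggatggATTTAtgaacagctg
Smad3 (chr9:63647336-63647360): ccgctttcgtATTTAtgtaacaatt
Smad3 (chr9:63647295-63647319): atggctaactATTTAatttctttag
Smad3 (chr9:63646893-63646917): aaaagcatgtATTTAtagtgtttta
These are all the ATTTA matches in the 3' UTRs of the 3 transcripts, and all lie in 3' UTR exons. The first Tgfb2 site is embedded in the longer AU-rich word TTATTTATT. The Tgfb1 3' UTR has 135 nt with 8.89% T, and the Tgfb2 3' UTR has 2656 nt with 30.9% T. The Tgfb3 3' UTR, with 1035 nt and 25.1% T, holds no ATTTA.

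Motif counts were made on the transcript strand, with overlapping matches counted, and a base could belong to both motifs. ATTTA occurred in the 3' UTR of 66.8% of the 13681 measured genes with an annotated 3' UTR, and the U-rich word TTTNTTT in 66.2%. Tgfb2 held 23 TTTNTTT matches, more than 91.6% of 3' UTRs within 20% of its length, and Tgfb3 held 1. Among the receptors, Tgfbr1 held 5 ATTTA and 16 TTTNTTT matches in 4154 nt, Tgfbr2 held 0 and 2 in 1449 nt, and Tgfbr3 held 5 and 22 in 3069 nt. Smad2 had the most ATTTA matches of the 10, with 17 in 6233 nt, and 7 TTTNTTT matches. Smad3 held 7 TTTNTTT matches in 3495 nt, Smad4 held 2 ATTTA and 1 TTTNTTT in 1249 nt, and Smad7 held 4 and 14 in 1570 nt. Of 3' UTRs within 20% of the member's length, 20.6% held an ATTTA at the length of Tgfb1, 94.1% at that of Tgfb2, 73.8% at that of Tgfb3 and 96.8% at that of Smad3. A match is only a run of letters, and which isoform these cells use was not measured.

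The genes lie apart in the genome on GRCm38. Tgfb1 spans chr7:25687002-25705077, Tgfb2 chr1:186622792-186705989 and Tgfb3 chr12:86056745-86079041, each with 7 exons. Tgfbr1 spans chr4:47353222-47414931, Tgfbr2 chr9:116084293-116175360 and Tgfbr3 chr5:107106570-107289629. Smad3 spans chr9:63646767-63757994, and Smad2, Smad4 and Smad7 are on chromosome 18. Of the exonic length of Tgfb3, 12.4% is shared with Gm37804 and Gm48008 on the opposite strand. Of that of Tgfb2, 2.14% is shared with Gm29491 on the opposite strand, and of that of Tgfbr3, 4.54% with Gm43422 on the same strand. Whether reads were counted by strand is not given in the sources used here, so a small part of these 3 values is uncertain. The other 7 members share no exonic base with another annotated gene.

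The libraries held 24797504 reads (HuR), 39112714 reads (YB-1) and 10630155 reads (IgG). Values are read counts divided by the authors' size factors, and 1 read was worth 0.862 normalized counts in the HuR library, 0.531 in the YB-1 library and 2.29 in the IgG library. Ratios were taken for genes with a mean of 10 normalized counts or more over the libraries. In RNA from a bulk extract, fewer cells that hold an RNA and less of it per cell cannot be told apart. The IgG library was the shallowest. Markers of differentiating C2C12 cells were present in all 3 libraries, with Myog at 229849 normalized counts in HuR, 45679 in YB-1 and 13754 in IgG. The IgG library also held markers of other cell types and of adult muscle fibre, which are given with Tgfbr3 below. The scaling between libraries matters for direction. Centring on ribosomal protein genes moved the median log2 ratio of all genes by -0.49 for HuR over IgG, -1.19 for YB-1 over IgG and 0.74 for HuR over YB-1. Scaling to total reads moved it by 0.19, 0.23 and -0.04. In YB-1 over IgG the ribosomal protein genes themselves lay above most genes. With their median at 0, the median of all genes was -1.36, with 2.13% of all genes 2-fold or more higher and 60.0% lower. In that comparison ribosomal centring kept the sign of 6 of 10 members. Scaling to total reads and centring on all genes each kept 10 of 10.

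Against IgG, the 3 ligand mRNAs had the highest ratios of the 10 members in HuR, while in YB-1 Tgfb1 came first and the receptor Tgfbr2 next. Tgfbr3 and Smad4 had the lowest ratios in both. In HuR over IgG, 3 of the 10 members were 2-fold or more higher, against 18.9% of 13024 genes, and 2 were 2-fold or more lower, against 31.1%. In YB-1 over IgG, 1 member was 2-fold or more higher, against 17.0% of 13022 genes, and 2 were 2-fold or more lower, against 32.8%. For a list of 10 genes, none of these counts stands far from the share of all genes. The 3 members on the higher side in HuR were the 3 ligands, of which Tgfb1 fell short of 2-fold under ribosomal centring (log2 ratio of 0.59). The median log2 ratio of the members was 0.21 in HuR over IgG, beside -0.16 for all genes, and turned to -0.28 under ribosomal centring, beside -0.65. In YB-1 over IgG it was -0.05, beside -0.17 for all genes, and turned to 0.18 when scaled to total reads, beside 0.06. Both comparisons used the same IgG library.

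**Figure D1:**
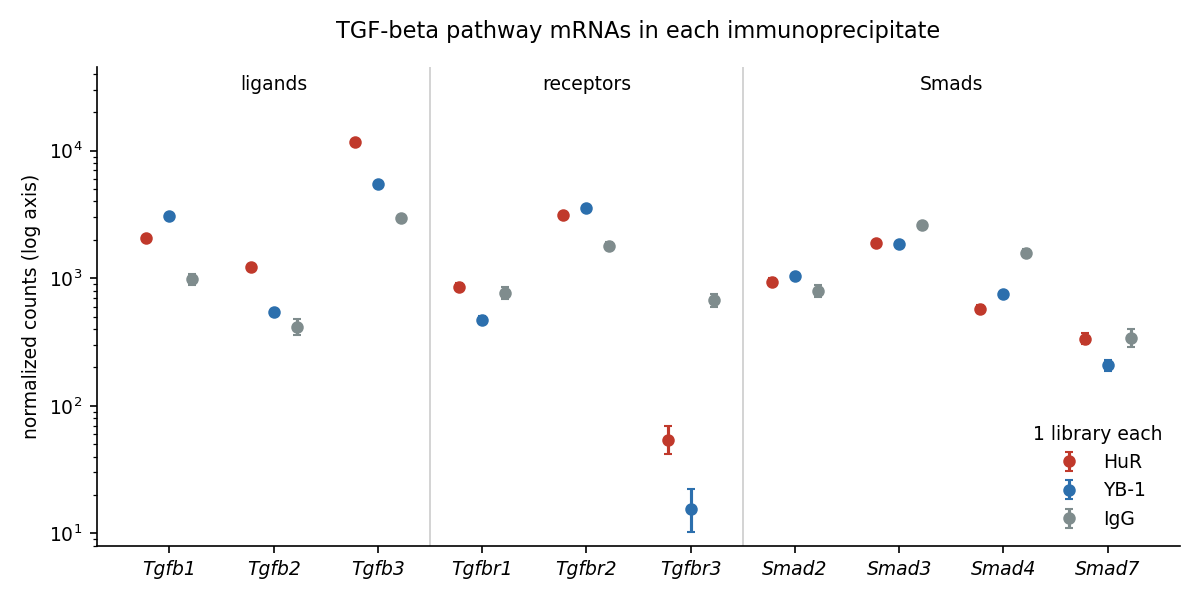
Normalized counts of the 10 mRNAs (y axis, log scale) in the HuR, YB-1 and IgG libraries, with 1 library each; bars are exact 95% Poisson intervals for counting error only. Tgfb3 stands at 11720 in HuR, 5453 in YB-1 and 2983 in IgG, and Tgfbr3 at 54.3, 15.4 and 675. Transcript length is not taken out, so heights of different genes are not comparable.

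Between the antibodies, 3 of the 10 members were 2-fold or more above YB-1 in HuR, against 19.3% of 11868 genes, and 0 were 2-fold or more below, against 10.6%. The 3 were Tgfb2, Tgfb3 and Tgfbr3, and again the counts are near the shares of all genes. The median log2 ratio of HuR over YB-1 was 0.36 for the members and -0.06 for all genes. Without Tgfbr3, which drops out at a mean of 50 normalized counts or more, the members' median was 0.02. This comparison takes no reads from the IgG library.

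**Figure D2:**
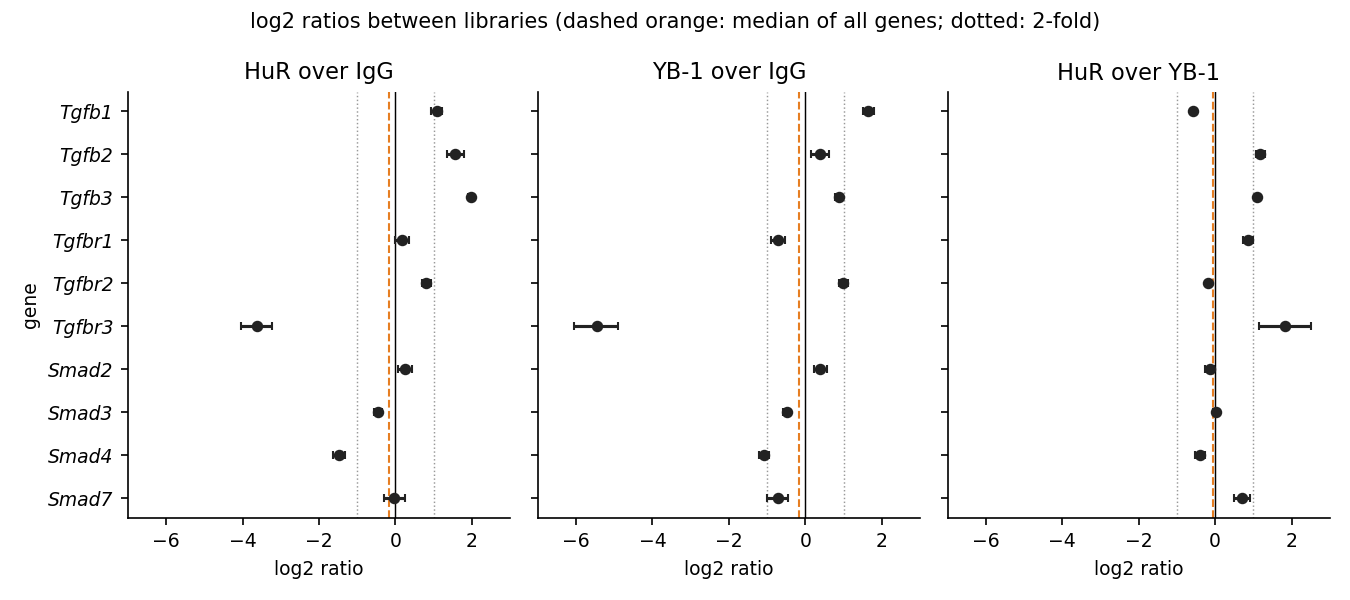
Log2 ratio of each member (x axis) for HuR over IgG, YB-1 over IgG and HuR over YB-1, with exact 95% intervals for counting error; dotted lines mark 2-fold and the dashed orange line the median of all genes. The 3 ligands lie right of the 2-fold line in HuR over IgG, and in HuR over YB-1, on the authors' scaling, Tgfb1 lies left of 0, at -0.57 (0.17 under ribosomal centring), while Tgfb2 and Tgfb3 lie at 1.18 and 1.10.

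The ligands split between the antibodies. Tgfb1, the ligand most widely made in adult tissues, stood at 2071 normalized counts in HuR, 3064 in YB-1 and 982 in IgG. Tgfb2 stood at 1227 in HuR, 543 in YB-1 and 415 in IgG. Tgfb3 stood at 11720 in HuR, 5453 in YB-1 and 2983 in IgG. YB-1 was therefore the highest of the libraries for Tgfb1, and HuR for Tgfb2 and Tgfb3.

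Tgfb1 was 2.11-fold higher in HuR than in IgG (interval 1.90 to 2.34) and 3.12-fold higher in YB-1 (2.83 to 3.45). In YB-1 over IgG, 775 of 13022 genes had a ratio as high or higher. Under ribosomal centring that ratio was short of 2-fold (log2 ratio of 0.45), and 0 members were past it, beside 2.13% of all genes. Scaled to total reads, Tgfbr2 and Tgfb3 were past 2-fold in YB-1 over IgG as well, at log2 ratios of 1.23 and 1.10. Its HuR level was 1.48-fold below its YB-1 level (1.41 to 1.55), a direction that turned under ribosomal centring, where the log2 ratio was 0.17.

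Tgfb2 was 2.95-fold higher in HuR than in IgG (2.53 to 3.47), but 1.31-fold higher in YB-1 (1.12 to 1.54), and that smaller ratio turned to a log2 value of -0.80 under ribosomal centring. In HuR it was 2.26-fold higher than in YB-1 (2.08 to 2.45). Tgfb3 was 3.93-fold higher in HuR than in IgG (3.71 to 4.16) and 1.83-fold higher in YB-1 (1.73 to 1.94), with that YB-1 ratio turning to a log2 value of -0.32 under ribosomal centring. In HuR it was 2.15-fold higher than in YB-1 (2.09 to 2.21). The HuR over YB-1 ratios of Tgfb2 and Tgfb3 were above 1 under each scaling tried, and 1933 and 2061 of 11868 genes had ratios as high or higher.

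The ratio of one ligand to another inside a library is free of the scaling. Its size still depends on the transcript lengths used, which were the same for each library. Per kb of transcript, the Tgfb2 level was 0.252 of the Tgfb1 level in HuR (0.236 to 0.269), 0.0754 in YB-1 (0.0704 to 0.0806) and 0.180 in IgG (0.150 to 0.214). The Tgfb3 level was 3.64 times the Tgfb1 level in HuR (3.48 to 3.80), 1.14 times in YB-1 (1.11 to 1.18) and 1.95 times in IgG (1.75 to 2.18). For both ratios HuR was above IgG and YB-1 below it, with counting intervals that do not overlap. Tgfb3 and Tgfb2 kept closer to each other, with Tgfb3 at 14.4 times Tgfb2 per kb in HuR (13.7 to 15.3), 15.2 times in YB-1 (14.2 to 16.2) and 10.9 times in IgG (9.29 to 12.8).

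**Figure D3:**
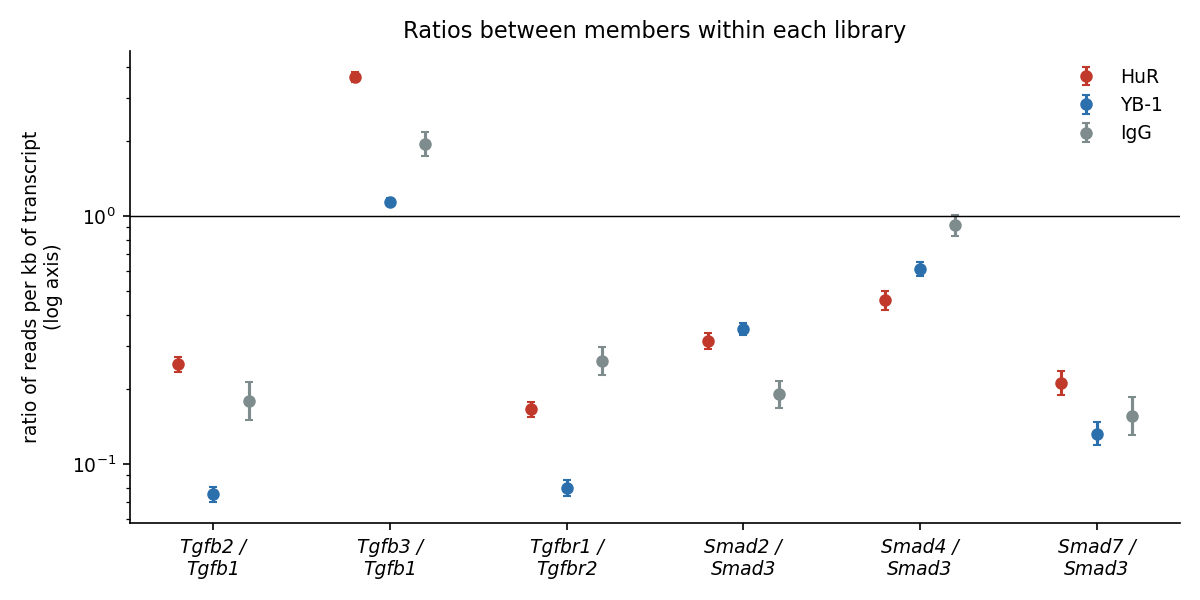
Ratio of reads per kb between 2 members within a library (y axis, log scale) in the HuR, YB-1 and IgG libraries, with exact 95% intervals for counting error. The ratios of Tgfb2 and of Tgfb3 to Tgfb1 are highest in HuR (0.252 and 3.64) and lowest in YB-1 (0.0754 and 1.14).

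The 3 receptors differed from each other in their order over the libraries. Tgfbr2, the receptor that binds ligand first, stood at 3127 normalized counts in HuR, 3563 in YB-1 and 1785 in IgG. It was 1.75-fold higher in HuR than in IgG (1.62 to 1.89) and 2.00-fold higher in YB-1 (1.85 to 2.15), just under the 2-fold limit at a log2 ratio of 0.997. Between the antibodies, HuR was 1.14-fold below YB-1 (1.09 to 1.19). The YB-1 over IgG and HuR over YB-1 directions turned under ribosomal centring, to log2 values of -0.19 and 0.55.

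Tgfbr1, the type I receptor kinase, stood at 860 normalized counts in HuR, 472 in YB-1 and 769 in IgG. HuR and IgG could not be told apart by counting error (1.12-fold, 0.988 to 1.27), while YB-1 was 1.63-fold lower than IgG (1.43 to 1.85). Tgfbr1 had a log2 ratio of HuR over IgG of -0.33 under ribosomal centring and of 0.36 when scaled to total reads. In HuR it was 1.82-fold higher than in YB-1 (1.66 to 2.00), and this direction held under each scaling tried. Per kb, Tgfbr2 exceeded Tgfbr1 by 6.02 times in HuR (5.61 to 6.46), 12.5 times in YB-1 (11.7 to 13.4) and 3.85 times in IgG (3.38 to 4.38), so the pair was most unequal in YB-1.

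Tgfbr3, the co-receptor betaglycan, had 63 reads in HuR and 29 in YB-1, against 294 in IgG, although IgG was the shallowest library. That is 54.3, 15.4 and 675 normalized counts. It was 12.4-fold lower in HuR than in IgG (9.43 to 16.6) and 43.8-fold lower in YB-1 (29.9 to 66.5). It was 3.52-fold higher in HuR than in YB-1 (2.24 to 5.68). These directions held under each scaling tried, but levels in both antibodies were low. In the authors' deposited table of YB-1 against IgG it was the only member with an unadjusted p under 0.05 (p = 0.0358 and adjusted p = 0.845 in DESeq2). In it, 0% of 15403 genes passed an adjusted p of 0.05, 213 had an unadjusted p under 0.05, and the p-values rest on 1 library per antibody.

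Many markers of other cell types and of adult muscle fibre were also below IgG, though not all. Of all genes, 31.1% were 2-fold or more below IgG in HuR and 32.8% in YB-1. All 10 endothelial markers were 2-fold or more below IgG in both antibodies, and they summed to 2.59 normalized counts in HuR, 60.0 in YB-1 and 13869 in IgG. Cldn5, Egfl7, Emcn, Kdr, Pecam1, Tek, Tie1 and Vwf were at 0 in HuR, and Emcn, Flt1 and Vwf were at 0 in YB-1. The 8 adipocyte markers summed to 335 in HuR, 147 in YB-1 and 21529 in IgG, with 6 of the 7 that had a ratio 2-fold or more below IgG in HuR, 7 of 7 in YB-1, and Adipoq, Cidec, Lep, Plin1 and Retn at 0 in both antibodies. The 8 adult fibre markers, such as Myh2 and Myh7, summed to 32007 in HuR, 34893 in YB-1 and 1088050 in IgG, and all 8 were 2-fold or more below IgG in both antibodies. Some were still well read in both antibodies, with Myh1 at 16568 in HuR and 15285 in YB-1, and Mb at 8556 and 13134. The 6 blood and immune markers in the table summed to 23.3 in HuR, 96.7 in YB-1 and 929 in IgG, with 4 of the 5 that had a ratio 2-fold or more below IgG in each antibody and Cd74, Csf1r, Lyz2 and Ptprc at 0 in both. Cd14, of the same list, stood at 23.3 in HuR, 81.3 in YB-1 and 29.8 in IgG, so that YB-1 exceeded IgG by 2.73-fold. The 6 fibroblast and pericyte markers summed to 21361 in HuR, 21643 in YB-1 and 28695 in IgG, with 4 of 6 at 2-fold or more below IgG in each antibody, Lum at 0 in both and Rgs5 at 0 in HuR. Most of that sum was Col3a1, which was not lower, with 19521 in HuR, 18748 in YB-1 and 16134 in IgG, although its log2 ratios to IgG turned to -0.21 and -0.97 under ribosomal centring. Of 7 markers of differentiating C2C12 cells, 6 were 2-fold or more above IgG in each antibody, beside 18.9% of all genes in HuR and 17.0% in YB-1. The other was Des, at 99071 in HuR, 173236 in YB-1 and 129599 in IgG. The 7 summed to 647465 in HuR, 542275 in YB-1 and 230957 in IgG. Of them, only Myog was 2-fold or more higher in HuR than in YB-1, and 4 had ratios of HuR over YB-1 below 1. Under ribosomal centring 6 were still above 2-fold in HuR, beside 11.3% of all genes. In YB-1 1 was, beside 2.13%, and the median log2 ratio there was 0.55 in place of 1.73. The part of these markers in the Tgfbr3 ratio, or in those of the other members, was not tested.

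The 4 Smads had log2 ratios of HuR over YB-1 from -0.40 to 0.69, beside -0.57 to 1.18 for the ligands. None was past 2-fold, though under ribosomal centring Smad7 was, at a log2 ratio of 1.43. Smad3 stood at 1883 normalized counts in HuR, 1860 in YB-1 and 2602 in IgG. It was 1.38-fold lower in HuR than in IgG (1.29 to 1.49) and 1.40-fold lower in YB-1 (1.31 to 1.497). On the authors' scaling, HuR and YB-1 could not be told apart by counting error for Smad3 (1.01-fold, 0.959 to 1.07). Under ribosomal centring its log2 ratio of HuR over YB-1 was 0.76. Smad2 stood at 941 in HuR, 1039 in YB-1 and 789 in IgG, and its ratios to IgG were 1.19-fold for HuR (1.05 to 1.35) and 1.32-fold for YB-1 (1.17 to 1.48). Both Smad2 ratios turned below 1 under ribosomal centring, with log2 values of -0.24 and -0.79.

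Smad4, the partner shared by TGF-beta and BMP signals, was lower in both antibodies. It stood at 573 normalized counts in HuR, 756 in YB-1 and 1588 in IgG, so that it was 2.77-fold lower in HuR than in IgG (2.49 to 3.09) and 2.10-fold lower in YB-1 (1.92 to 2.30). These directions held under each scaling tried, though the YB-1 ratio was short of 2-fold when scaled to total reads (log2 value of -0.84). Between the antibodies, HuR was 1.32-fold below YB-1 (1.20 to 1.45), which turned to a log2 value of 0.34 under ribosomal centring. Smad7 stood at 335 in HuR, 207 in YB-1 and 342 in IgG. HuR and IgG could not be told apart for it (0.981-fold, 0.810 to 1.19), and its YB-1 level was 1.65-fold below its IgG level (1.36 to 2.00). Under ribosomal centring the log2 ratio of HuR over IgG for Smad7 was -0.52. Smad7 in HuR was 1.62-fold higher than in YB-1 (1.40 to 1.87) under a direction that held at each scaling.

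Within a library, the Smads stood in different proportions to Smad3. Per kb, Smad4 was 0.458 of Smad3 in HuR (0.419 to 0.500), 0.612 in YB-1 (0.575 to 0.651) and 0.918 in IgG (0.834 to 1.01). Smad2 was 0.314 of Smad3 in HuR (0.292 to 0.338), 0.351 in YB-1 (0.332 to 0.372) and 0.191 in IgG (0.169 to 0.216). Smad7 was 0.212 of Smad3 in HuR (0.190 to 0.236), 0.133 in YB-1 (0.119 to 0.147) and 0.156 in IgG (0.131 to 0.186). The Smad4 proportion was thus lowest in HuR and the Smad7 proportion highest there.

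Per kb of transcript, Tgfb3 was the most abundant member in every library, with 3464 normalized counts per kb in HuR, 1612 in YB-1 and 882 in IgG. In HuR it was followed by Tgfb1 (952), Tgfbr2 (900), Smad3 (370), Tgfb2 (240), Smad4 (169), Tgfbr1 (149), Smad2 (116), Smad7 (78.4) and Tgfbr3 (8.92). In YB-1 the order after Tgfb3 was Tgfb1 (1409), Tgfbr2 (1025), Smad3 (365), Smad4 (223), Smad2 (128), Tgfb2 (106), Tgfbr1 (82.0), Smad7 (48.4) and Tgfbr3 (2.53). Tgfb2 stood above Smad4 and Smad2 in HuR and below both in YB-1, and Smad2 stood below Tgfbr1 in HuR and above it in YB-1. Neighbours in both orders differed beyond counting error, most narrowly Tgfb1 and Tgfbr2 in HuR (1.06-fold, 1.00 to 1.11). These orders rest on the length of 1 annotated transcript per gene, and the intervals leave out any error in that length. Tgfb1 has 2175 nt in that transcript and 5042 exonic nt in all, Tgfbr2 3476 and 8187, and Tgfb3 3383 in both. Orders by exonic length were not taken. In IgG, Tgfbr2 (514), Smad3 (511), Smad4 (469) and Tgfb1 (452) followed Tgfb3, and neighbours within this group did not differ beyond counting error. Below them came Tgfbr1 (134), Tgfbr3 (111), Smad2 (97.6), Tgfb2 (81.2) and Smad7 (79.9), where Tgfbr3 could not be told from Smad2, nor Tgfb2 from Smad7.

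The rest of the pathway was read from 7 further gene lists. In HuR over YB-1, 10 of 13 other receptors of the family had a ratio. Of these 10, 7 were past 2-fold on the higher side, against 19.3% of 11868 genes. On the lower side 1 was, against 10.6%, and the median log2 ratio of the 10 was 1.49. Those on the higher side include Acvr2b, named once its values were known, which had 0 reads in YB-1 and was set at the floor of 3 reads there. Bmpr1a and Acvr1, type I receptors for BMPs, were 2.90-fold (2.77 to 3.04) and 2.76-fold higher (2.61 to 2.92), and Rgma, a BMP co-receptor, was 1.11-fold higher (1.04 to 1.18). Bmpr1a stood at 4441 normalized counts in HuR, 1530 in YB-1 and 2249 in IgG. Tgfbr1, at 1.82-fold, lay below Bmpr1a and Acvr1, and Tgfbr2 lay on the other side of 1. When scaled to total reads 7 receptors were past 2-fold on the higher side, beside 18.7% of all genes. Under ribosomal centring 8 were, beside 37.2%.

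Of the 4 Smads outside the members, Smad1 and Smad5, the Smads that carry BMP signals, were 5.05-fold (4.74 to 5.39) and 2.36-fold higher (2.22 to 2.50) in HuR than in YB-1. Smad6, an inhibitory Smad, was 4.31-fold higher (3.19 to 5.88), with 140 normalized counts in HuR, 32.4 in YB-1 and 156 in IgG. Smad9 had 0 reads in HuR, 36 in YB-1 and 6 in IgG, and its mean over HuR and YB-1 was under 10 normalized counts, so it was not counted. Smad1 stood at 3311 in HuR, 655 in YB-1 and 459 in IgG, the largest HuR over YB-1 ratio among the Smads measured. All 3 counted Smads were past 2-fold in this comparison under each scaling tried. On the authors' scaling none of the 4 member Smads was, and 19.3% of all genes were.

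**Figure D4:**
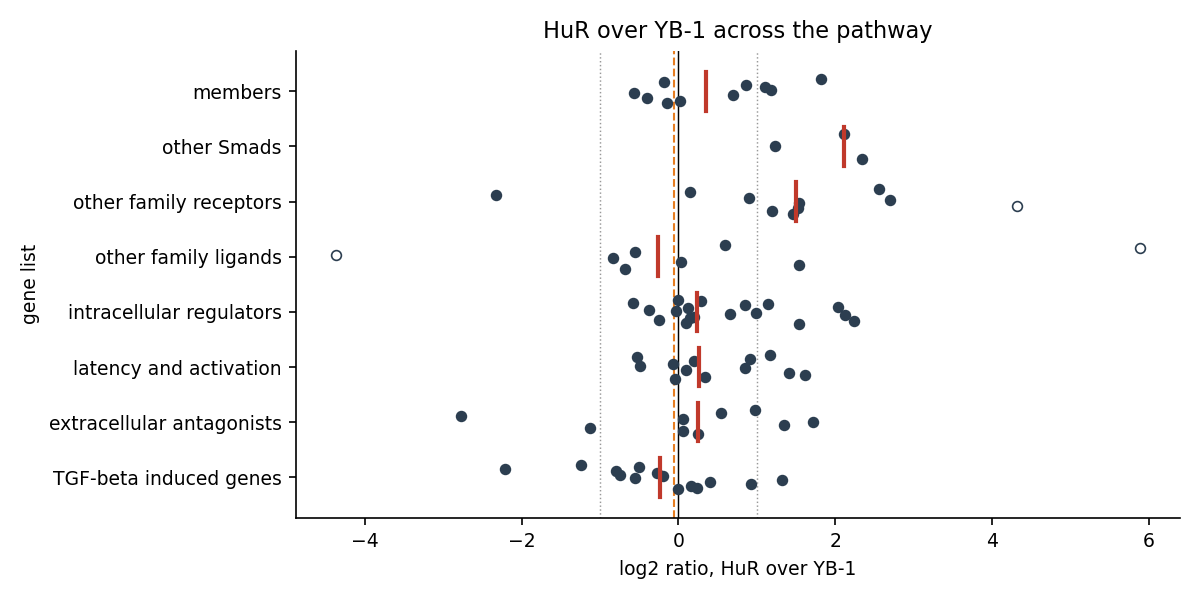
Log2 ratio of HuR over YB-1 (x axis) for each gene with a ratio in the members and in 7 other pathway lists; red bars are list medians, dotted lines mark 2-fold, the dashed orange line is the median of all genes, and open circles are bounds where 1 library had 0 reads. Medians are highest for the other Smads (2.11) and other family receptors (1.49), against 0.36 for the members.

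Lists of genes that act around the pathway had medians closer to that of all genes than the other receptors and Smads had. Under ribosomal centring 9 intracellular regulators, 6 genes of latency and activation and 4 extracellular antagonists were past 2-fold on the higher side, with median log2 ratios of 0.98, 1.01 and 0.99. That centring moves every gene by the same amount. All genes then had a median of 0.68, and 37.2% were past 2-fold on the higher side. On the authors' scaling, 19.3% of all genes were 2-fold or more above YB-1 in HuR and 10.6% below. Of 18 intracellular regulators, 5 were 2-fold or more above YB-1 in HuR and 0 below, and the median log2 ratio was 0.24. Fkbp1a, which encodes a protein that binds and restrains the type I receptor, stood at 49847 normalized counts in HuR, 10591 in YB-1 and 4683 in IgG, which is 4.71-fold higher in HuR than in YB-1 (4.63 to 4.78). Ski, a repressor of Smad transcription, was 1.58-fold higher (1.53 to 1.63), and Pmepa1, which limits Smad activation, 1.10-fold higher (1.08 to 1.13). Of 12 genes of latency and activation, 3 were 2-fold or more above and 0 below, and the median was 0.27. Among these, Thbs1, whose product activates latent TGF-beta, was 2.24-fold higher (2.19 to 2.29), the membrane protease Mmp14 1.88-fold higher (1.83 to 1.93), and the latent TGF-beta binding protein Ltbp3 at 0.951-fold (0.921 to 0.981).

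Of 9 extracellular antagonists, 2 were 2-fold or more above YB-1 in HuR and 2 below, beside 19.3% and 10.6% of all genes. The median was 0.25. The activin and myostatin antagonist Fst was 2.54-fold higher (2.43 to 2.65) and its relative Fstl1 3.28-fold higher (3.22 to 3.34), while Dcn, a matrix proteoglycan that binds TGF-beta, was 2.19-fold below YB-1. Of 8 other ligands of the family with a ratio, 2 were above and 1 below, and the median was -0.26. Inhbb, an activin subunit, was 1.51-fold higher in HuR than in YB-1 (1.38 to 1.64), and Gdf11 2.91-fold higher (2.49 to 3.41). Gdf15, at 1.02-fold (0.870 to 1.20), could not be told apart by counting error on the authors' scaling. Inhba, the other activin subunit, which was singled out after its values were seen, had 109 reads in HuR, 0 in YB-1 and 9 in IgG. With YB-1 set to the floor of 3 reads, it was 59.0-fold higher in HuR than in YB-1. Its counting interval, without the floor, ran from 47.1-fold upward. Of the 21 ligand genes in the table, 12 had 0 reads in HuR and 12 in YB-1, among them Mstn (myostatin), with 18 reads in IgG. The share of all genes at 0 reads was not taken. The 21 genes together summed to 1700 normalized counts in HuR, 1189 in YB-1 and 1251 in IgG.

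Genes taken here as induced by TGF-beta, a list that includes Id1, Id2 and Id3, did not share a direction between the antibodies. Their median, like that of the other ligands, turned above 0 under ribosomal centring, to 0.51 and 0.48, where that of all genes was 0.68. Of 14 listed genes with a ratio, 1 was 2-fold or more above YB-1 in HuR, beside 19.3% of all genes. On the lower side 2 were, beside 10.6%, and the median was -0.23. The 1 above was Id2, at a log2 ratio of 1.32, named once its values were known. Cdkn1a, which encodes a cell cycle inhibitor and is also in the C2C12 marker list, stood at 45117 normalized counts in HuR, 45429 in YB-1 and 14172 in IgG. Col1a1 and Col1a2, the chains of type I collagen, were 1.18-fold (1.13 to 1.22) and 1.12-fold higher (1.08 to 1.16) in HuR than in YB-1, and lower in both antibodies than in IgG, with Col1a1 at 4138, 3515 and 7258 and Col1a2 at 4815, 4306 and 9743 in HuR, YB-1 and IgG.

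Several other receptors of the family were, like Tgfbr3, below IgG. Of 13 other receptors, 2 were 2-fold or more above IgG in HuR, beside 18.9% of all genes, and 8 below, beside 31.1%. In YB-1, 0 were above, beside 17.0%, and 9 below, beside 32.8%. Of those below, 2 in HuR and 4 in YB-1 had 0 reads and were set at the floor. Endoglin (Eng), a co-receptor abundant in endothelium, had 31.9 normalized counts in HuR, 160 in YB-1 and 1714 in IgG. Acvrl1, an endothelial type I receptor, had 0 reads in both antibodies and 171 in IgG. With the antibody library set to the floor of 3 reads, it was 152-fold below IgG in HuR and 246-fold below it in YB-1. Without the floor, the counting intervals reached up to 0.00819 of the IgG level in HuR and 0.00505 in YB-1. Eng and Acvrl1 were picked once their values were known. The endothelial markers given above were also below IgG, and their part was not tested.

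Across all genes with a 3' UTR, those with an ATTTA had a median log2 ratio of HuR over YB-1 of 0.13 (7395 genes) and those without one of -0.38 (3480 genes). Genes with a match also had longer 3' UTRs, with a median of 1554 nt against 374 nt, so the motif and the length cannot be told apart here. Of the members, Tgfb1, with a 3' UTR of 135 nt, had a log2 ratio of -0.57, and Tgfb2, with 2656 nt, one of 1.18. Tgfb3, with no ATTTA, had 1.10, and Smad2, with 17 ATTTA matches in the longest 3' UTR of the 10, had -0.14.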

How the data were processed

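The values came from 1 table of RIP-seq data. The authors divided read counts per gene by 1 size factor per library, and this deposited signal (with its mean, baseMean) was used. The deposited table also gives log2 fold changes of YB-1 over IgG, moderated and not, with a standard error, a Wald score, and p-values. The tools named by the submitters' processing notes are DESeq2, HTSeq 0.6.1 and TopHat2 2.0.10, on mm10 and GRCm38 (names of 1 assembly), and no settings are given. In each library 100% of values were whole multiples of 1 read within 0.01 read, so reads were recovered. Left out were 25 rows with a date for a symbol (0.304% of HuR, 0.190% of YB-1 and 0.123% of IgG reads).

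Log2 ratios were unmoderated. A library at 0 was set to 3 reads, no ratio was taken where both had 3 or fewer, and genes needed a mean of 10 normalized counts (over 3 libraries, or over HuR and YB-1 for their comparison). Intervals were exact 95% (Clopper-Pearson for ratios, Poisson for levels). With 1 library per antibody no count model could be fitted to the recovered reads, and no test was made. Calculations used Python 3.11.15, pandas 2.3.3, NumPy 2.4.6, SciPy 1.17.1 and Matplotlib 3.10.9, tested on simulated data. Transcript lengths and 3' UTRs came from GENCODE M21 (the principal basic transcript with the longest 3' UTR). Members and lists were chosen with earlier results of these data known. Named outside the members were the 3 genes of highest mean in each pathway list, and Myog for scale. A list with 5 or fewer measured genes was named in full. Others were picked once their values were known. These were the genes said so in the text, Mstn, Des, and the markers of other cell types and adult fibre, named mostly for being at 0. Alternatives were 3 other scalings, a floor of 1 read, no filter or a mean of 50, a 1.5-fold limit, and the authors' moderated fold.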

Additional observations from a re-analysis of the deposited data

How the results depend on the processing

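Scaled to total reads, the members' median log2 ratio was 0.40 in HuR over IgG. YB-1 over IgG then had 3 members higher, 1 lower and a median of 0.18, beside 23.5% and 29.2% of all genes. Under ribosomal centring the medians were -0.28 in HuR over IgG, -1.24 in YB-1 over IgG (0 higher, 5 lower) and 1.10 in HuR over YB-1 (5 higher). Those of all genes were -0.65, -1.36 and 0.68. Of all genes, 2.13% were then higher and 60.0% lower in YB-1 over IgG, and 37.2% higher in HuR over YB-1. Centred on all genes, YB-1 over IgG had 3 higher, 1 lower and a median of 0.12, beside 21.8% and 30.0% of all genes. At 1.5-fold, YB-1 over IgG had 3 higher and 4 lower, and HuR over YB-1 had 5 higher. With the authors' moderated fold, YB-1 over IgG had 1 lower. For these last 2 settings the share of all genes was not taken. At a mean of 50 the HuR over YB-1 median was 0.018, over 9 members. No member at least 2-fold apart changed direction under the alternatives run for single members. Of 189 such values, 127 stayed inside the counting interval and 62 did not. The 127 include every value from a floor of 1 read, no filter and a mean of 50. As no member had 0 reads, those settings could not change a member's value. All 62 came from the 3 other scalings or the authors' moderated fold. No paired analysis was possible because each antibody has 1 library. Depth limits Tgfbr3 most, with 29 reads in YB-1.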
